A study of Mus musculus with 30 samples.

Results

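The core circadian clock loop was described through 10 genes: the activators Arntl (also called Bmal1), Clock and Npas2, and the repressors Cry1, Cry2, Per1, Per2, Per3, Nr1d1 and Nr1d2. A probe was taken when the RefSeq transcript named for it on the array belongs to one of these genes, which gave 17 of 41174 probes. Each female C57BL/6 mouse gave 1 array, on which its liver RNA was read against a universal mouse reference RNA as a log2 ratio. There were 16 control mice, whose treatment the labels give only as none, and 14 mice exposed to 0.162 mg of Printex 90, nanoparticles of carbon black. The mice were 5 to 6 weeks old on arrival, and their age at sampling is not given in the sources used here. The labels describe the particles as suspended in 0.9% NaCl with 10% acellular lavage fluid from C57BL/6 mice, and a volume of 40 µl as instilled into the trachea and followed by 150 µl of air. Whether the control mice received that vehicle, the time of day of sampling and the time after instillation are not given in the sources used here. The design text of the series counts 6 mice in a treatment group, whereas more arrays were analysed here. In each group the animals carry numbers that form 3 separate runs of neighbours, with 6, 5 and 5 control and 4, 5 and 5 exposed animals. What these runs stand for is not explained in the labels.

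The clock is a transcription loop that runs in nearly every cell of the body, and in liver it times much of metabolism. The proteins of Arntl and of Clock or its relative Npas2 pair up and switch on genes through the E-box, among them the Per, Cry and Nr1d genes. PER and CRY proteins return to the nucleus and block that pair. NR1D1 and NR1D2 (REV-ERB alpha and beta) repress Arntl, Npas2, Clock and Cry1 through the sites that ROR proteins also bind, so that transcripts of the activator arm and of the Per and Nr1d genes peak at opposite times of day in liver.

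The stretches printed here come from RefSeq promoter windows of the build GRCm38.p6 and show the letters through which these proteins are known to act. RNA was measured on the arrays, and binding was not. Windows of 300 bases, 250 before to 50 after a start site, were found for 9 of the 10 genes, Per2 being the exception. The letters searched on both strands were CACGTG (E-box), CACGTT (E-box variant), AGGTCA (core of the ROR site) and TTANGTAA (D-box, the site of the Dbp family and Nfil3), and no match in a member overlapped another. The E-box stood in a window of 2 members, Cry1 and Per1, and of 8.09% of all 27025 genes with a window. A gene can have several windows. The E-box variant stood in 3 (Cry1, Cry2 and Nr1d1) and in 5.44% of all genes. The ROR core stood in 4 (Arntl, Clock, Per1 and Nr1d2) and in 18.1% of all genes, that of Arntl lying after the start in 1 of its 2 windows. A D-box stood in 1 member, Per3, and in 2.72% of all genes. Each stretch reads 5′ to 3′ on the strand of its gene, with every match to the searched letters, or to their reverse complement, in capitals.
Per1, E-box, chr11:69098753-69098818, plus strand: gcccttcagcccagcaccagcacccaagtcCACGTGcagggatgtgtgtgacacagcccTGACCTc
Cry1, E-box, chr10:85185079-85185144, minus strand: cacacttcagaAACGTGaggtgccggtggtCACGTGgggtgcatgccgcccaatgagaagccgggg
Cry2, E-box variant, chr2:92434200-92434265, minus strand: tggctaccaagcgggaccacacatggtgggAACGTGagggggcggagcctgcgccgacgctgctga
Nr1d1, E-box variant, chr11:98775378-98775435, minus strand: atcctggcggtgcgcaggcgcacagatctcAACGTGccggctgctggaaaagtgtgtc
Nr1d2, ROR core, chr14:18239148-18239213, minus strand: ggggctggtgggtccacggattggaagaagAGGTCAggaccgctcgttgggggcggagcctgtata
Per3, a pair of D-boxes, chr4:151044786-151044900, minus strand: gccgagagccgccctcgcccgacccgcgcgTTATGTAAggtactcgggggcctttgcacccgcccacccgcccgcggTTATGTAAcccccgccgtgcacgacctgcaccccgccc
The Per1 stretch comes from 1 of the 2 windows of that gene, and the other window held no match. In it the E-box lies 166 bases before the start of that window's transcript and a ROR core, as its reverse complement, 137 before it. In the Cry1 stretch the E-box lies 60 bases before the start. The stretch of Cry1 also holds the variant, 79 bases before the start, so that both forms stand within the same part of that promoter. A match is a run of letters, and no statement about binding follows from its presence or absence.

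Median Cy5 signals, which carry the liver RNA, lay between 104 and 196 per array, and each array had 42.8% to 79.2% of its probes well above background. The hepatocyte markers Alb, Apoa1, Ttr, Cyp3a11 and Tat had mean ratios between 4.58 and 6.08 in both groups. The mean level of the 5 measured hepatocyte markers ran from 4.93 to 6.27 in control and from 4.74 to 5.95 in exposed animals, and that of the neutrophil markers S100a8 and S100a9 from 0.78 to 2.34 and from 1.44 to 2.36. S100a8 and S100a9 differed by 0.22 and 0.60 (adjusted p = 0.237 and 0.215), the neutrophil markers Ngp and Camp were well above background on at most 2 arrays, and the part of such cells in the clock values was not tested. Of the 7 cell type lists no gene passed between the groups by limma, the lowest p being that of Sox9, a bile duct marker, which differed by -0.45 ± 0.09 (SE, adjusted p = 0.0651) and correlated with Arntl at r = 0.57 with group means removed. The other bile duct markers Krt19, Krt7, Epcam and Spp1 differed by -0.13, -0.12, -0.06 and -0.17. Their r with Arntl was -0.03, -0.18, -0.14 and 0.03. The part of bile duct cells in the level of Arntl was not tested. Every control array had position 1 or 2 on its slide and every exposed array position 3 or 4, so position and group cannot be told apart. In the reference channel 0 of 23607 probes passed between the same positions by limma (1288 had an unadjusted p under 0.05, 5.46%), and the differences of the members there ran from -0.01 to 0.15. Clock (0.15, unadjusted p = 0.117), Per2 (0.15, unadjusted p = 0.0252) and Arntl (0.14, unadjusted p = 0.0424) were the highest, and a higher reference signal lowers the ratio. The part of this shift in the ratio of Clock was not tested.

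The means of Arntl and Clock were lower in the exposed livers and those of the Per and Nr1d genes higher, but no member passed the threshold over all probes. Of the 10 members, 9 were tested, having a probe whose Cy5 signal exceeded background clearly on 14 or more of the 30 arrays, and 0 of these 9 passed at an adjusted p under 0.05 (limma, adjusted over 23607 probes), where 0.0169% of all tested probes passed. At an unadjusted p under 0.05 there were 6 of 9, with 3 higher (Per1, Per3, Nr1d2) and 3 lower (Arntl, Clock, Cry1), against 12.2% of all tested probes, 7.5% higher and 4.68% lower. Less RNA per cell and fewer cells of a type cannot be told apart in whole liver. All levels are log2 ratios, each to the same probe's reference signal, and are compared between animals and not between genes.

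Arntl, the partner shared by both activator pairs, ran from -0.84 through a median of 1.19 to 1.92 in control animals and from -0.997 through 0.24 to 1.07 in exposed animals. All 14 exposed animals lay below the control median, 10 of 16 control animals lay above the highest exposed animal, and the ranges overlapped. Control animals 574 and 549, at -0.84 and -0.49, stood apart from the other 14, of which the lowest was at 0.47. The difference was -0.74 ± 0.23 (SE), a ratio of 0.601 between the groups, with an adjusted p of 0.176. It was lower in the exposed animals on 6 of the 7 slides that held both groups.

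Clock, the usual partner of Arntl, moved over a far smaller range, from 0.11 through 0.61 to 0.92 in control and from 0.10 through 0.39 to 0.67 in exposed animals. The ranges overlapped almost entirely, yet 13 of 14 exposed animals lay below the control median. The difference was -0.19 ± 0.07 (SE) with an adjusted p of 0.234, and it was negative on 7 of 7 slides. A second detected probe of Clock correlated with it at r = 0.90 and differed by -0.20, and a dimmer probe correlated at r = 0.33 and differed by -0.07.

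Npas2, which can stand in for Clock, was not tested, because its probe was well above background on only 13 of 30 arrays, 8 of control and 5 of exposed animals. Its measured ratios ran from -0.14 through 0.26 to 0.78 in control and from -0.47 through 0.08 to 0.34 in exposed animals. Of the exposed animals, 13 of 14 lay below the control median.

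Cry1, a repressor that is itself a target of the NR1D proteins, ran from -0.54 through -0.03 to 0.69 in control and from -0.50 through -0.19 to 0.20 in exposed animals. The exposed range lay inside the control range, with 6 control animals above it and 2 below it. The difference was -0.21 ± 0.10 (SE), adjusted p = 0.387, from a probe that was well above background on 20 of 30 arrays. Its relative Cry2 ran from 0.35 through 0.55 to 1.12 in control and from 0.19 through 0.85 to 1.31 in exposed animals. There 3 exposed animals lay above every control animal and 3 below every control animal, and the difference was 0.10 ± 0.10 (SE), adjusted p = 0.759. A second, dimmer probe of Cry2 correlated with this one at r = 0.16 and differed by 0.03, so the probes of Cry2 disagree.

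Per1, the Per gene that also responds quickly to glucocorticoid and other signals, ran from -2.65 through -1.47 to 0.15 in control and from -1.77 through -0.97 to 0.34 in exposed animals. Of the exposed animals 13 of 14 lay above the control median, and 7 control animals lay below the lowest exposed animal. The difference was 0.74 ± 0.22 (SE), a ratio of 1.67, with an adjusted p of 0.160. Control animal 573 held the highest control value, and without it the difference was 0.86 with an adjusted p of 0.0364. In the fit without animal 573, 111 probes passed in all, against 4 with every animal.

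Per2 ran from -1.06 through 0.28 to 1.67 in control and from -0.50 through 0.72 to 1.94 in exposed animals, a broad overlap. The difference was 0.40 ± 0.22 (SE), adjusted p = 0.477. A second detected probe of Per2 correlated with this one at r = -0.07 across the 30 animals and differed by 0.11, so the probes of this gene disagree. Per3 ran from -1.12 through -0.47 to 0.32 in control and from -0.54 through -0.08 to 0.85 in exposed animals, with 6 control animals below the lowest exposed one. Its difference was 0.32 ± 0.12 (SE), adjusted p = 0.251, and its probe was well above background in 8 of 16 control and 12 of 14 exposed animals.

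Nr1d2, the partner of Nr1d1 in repressing the activators, ran from -0.38 through 0.75 to 1.76 in control and from 0.64 through 1.32 to 1.97 in exposed animals. Of the exposed animals 13 of 14 lay above the control median and 3 lay above every control animal. The difference was 0.62 ± 0.17 (SE), a ratio of 1.54, with an adjusted p of 0.146, and it was positive on 7 of 7 slides. Nr1d1 ran from -0.41 through 1.02 to 1.80 in control and from -0.08 through 1.19 to 2.12 in exposed animals, overlapping broadly, and differed by 0.23 ± 0.20 (SE), adjusted p = 0.680. Its other detected probes correlated with it at r = 0.83 and r = 0.46 and differed by 0.15 and -0.01.

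With array weights, which give less weight to arrays that deviate more, Arntl (-0.87, adjusted p = 0.0489) and Nr1d2 (0.72, adjusted p = 0.0442) passed. In that fit 166 probes passed in all, against 4 in the unweighted one.

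**Figure D1:**
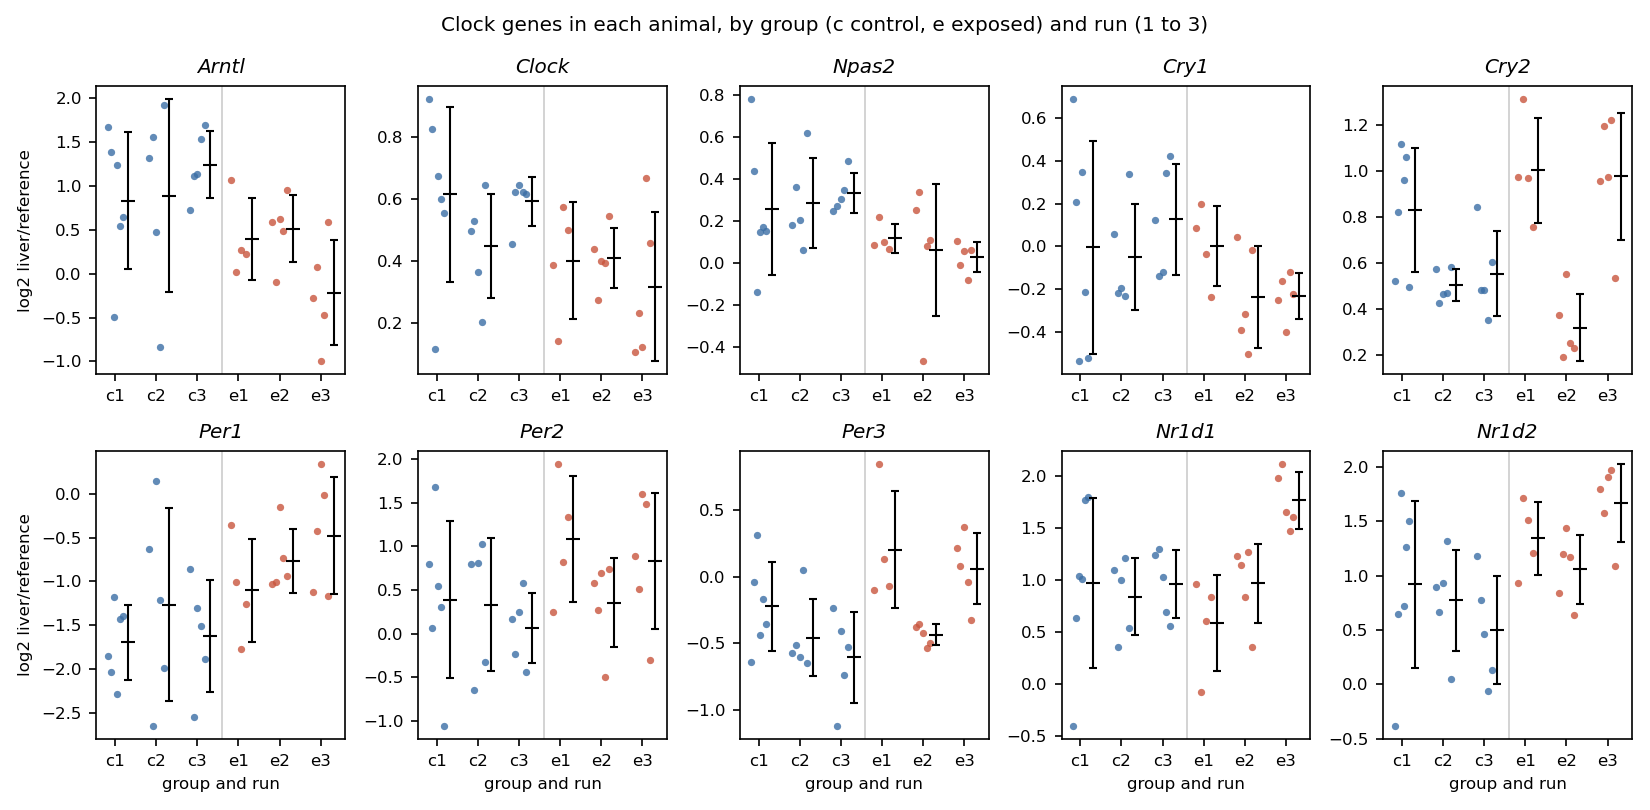
Log2 ratio of liver over reference RNA for the 10 clock genes, 1 point per animal, by group (c control, e exposed) and run (1 to 3); black bars are the run mean and SD, and each panel has its own vertical axis. Arntl is lowest in exposed run 3, Nr1d1 is highest there, and Cry2 is lower in exposed run 2 than in exposed runs 1 and 3.

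The exposed animals were not alike. Cry2 and Nr1d1 differed among the 3 exposed runs (moderated F test of limma, adjusted p = 0.00408 and 0.0395), so 2 of 9 tested members passed where 4.13% of all probes did. Among the 3 control runs 0 of 9 passed, against 0.089% of all probes, and at an unadjusted p under 0.05 only Cry2 (p = 0.0354) was below it, against 7.03% of all probes. The difference between the groups in how much their runs differ was not tested. On a slide, animals of run 1 always preceded the other animal of their group and animals of run 3 always followed it, so between runs 1 and 3 run and position cannot be told apart. Run 2 held both positions.

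Cry2 was at 1.31, 0.97, 0.97 and 0.76 in the 4 animals of exposed run 1 and at 0.95, 1.20, 0.97, 1.22 and 0.53 in the 5 of run 3. In exposed run 2 it was at 0.37, 0.19, 0.55, 0.25 and 0.23. Every animal of run 1 and all but 1 animal of run 3 lay above every animal of run 2. The run means were 1.0 ± 0.23 (SD, n = 4), 0.32 ± 0.15 (SD, n = 5) and 0.98 ± 0.28 (SD, n = 5), and those of the control runs 0.83, 0.50 and 0.55. Within run 2, Cry2 was at 0.19 and 0.23 at position 3, the position of run 1, and at 0.37, 0.55 and 0.25 at position 4, that of run 3. At position 3 the runs did not overlap, and at position 4 they did through the animal at 0.53. The adjusted p was 0.0811 when slides entered as fixed terms, 0.109 with median centring in place of loess and 0.0555 without exposed run 1. All these values are those of the brighter probe of Cry2, with which the dimmer one correlated at r = 0.16.

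Nr1d1 was at 0.97, -0.08, 0.61 and 0.84 in exposed run 1 and at 1.23, 1.14, 0.84, 1.27 and 0.35 in run 2. In exposed run 3 it was at 1.99, 2.12, 1.66, 1.47 and 1.61, so that every animal of run 3 stood above every animal of the other exposed runs. The control run means were 0.97, 0.84 and 0.96. This call was lost without any 1 of 10 exposed animals (adjusted p from 0.0517 to 0.106; animals 176, 177, 179, 195, 196, 197, 212, 213, 214 and 215), and it was also lost with slides as fixed terms (0.118), median centring (0.356), processed signals (0.0741), the deposited value table (0.0516), no filter on dim probes (0.0622), without arrays of the older software (0.0772) and without exposed run 1 (0.455).

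Each exposed run was also set against the mean of the 3 control runs. In run 1, Per3 was higher by 0.61 ± 0.15 (SE), a ratio of 1.52, and passed (limma, adjusted p = 0.0178), as did 1.6% of all probes in the higher direction. Per3 was at -0.10, 0.85, 0.13 and -0.07 in those 4 animals, and without the animal at 0.85 (animal 177) the difference was 0.41 and the adjusted p 0.170. The adjusted p was 0.0779 with slides as fixed terms and 0.144 with median centring. Cry2 was higher by 0.36 ± 0.11 (SE) in run 1, adjusted p = 0.0578. Of the cell type markers, Ttr of hepatocytes (-1.14, adjusted p = 0.00802), Spp1 of bile duct cells (-0.59, 0.0462) and Col1a1 of stellate cells (-0.61, 0.0433) fell in this run by the same limma contrast. In the lower direction 754 of 23607 probes passed there. The other tested markers of the same lists did not pass. For hepatocytes they were Alb (-0.10), Apoa1 (-0.11), Cyp3a11 (-0.004) and Tat (0.18). For bile duct cells they were Krt19 (-0.26), Krt7 (-0.04), Epcam (-0.11) and Sox9 (-0.39), and for stellate cells Lrat (0.11), Reln (-0.32) and Dcn (0.05). Ttr also differed among the exposed runs (moderated F test of limma, adjusted p = 0.00561). The part of these markers in the values of Per3 and Cry2 was not tested.

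In run 2 none of the 9 tested members passed, against 0.0169% of all probes, and the lowest unadjusted p was that of Cry2, which was lower by 0.29 ± 0.10 (SE). Per1 differed by 0.70 ± 0.31 (SE) there, while Nr1d1 (0.04), Per2 (0.08) and Per3 (0.02) were within 0.1 of the controls.

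Run 3 held the largest differences of Arntl, Per1, Nr1d1 and Nr1d2 among the 3 exposed runs, though 0 of 9 passed, against 0.131% of all probes. Arntl differed by -1.16 ± 0.32 (SE, adjusted p = 0.116), a ratio of 0.448. Nr1d2 differed by 0.93 ± 0.23 (SE, adjusted p = 0.0835), Nr1d1 by 0.88 ± 0.23 (SE, adjusted p = 0.103) and Per1 by 1.03 ± 0.31 (SE, adjusted p = 0.152). Arntl was at -0.28, 0.08, -0.997, -0.47 and 0.59 in these animals, and Nr1d2 at 1.79, 1.58, 1.91, 1.97 and 1.09. The animal with the highest Arntl, number 216, had the lowest Nr1d2. It also had the lowest Cry2 of the run (0.53), so leaving it out by itself widens the differences of these genes. Without animal 216, Arntl (-1.42, adjusted p = 0.0471), Nr1d2 (1.1, 0.0416) and Cry2 (0.44, 0.0474) passed. The number of all probes that passed without it is not given here. Arntl also passed without control animal 574 (-1.34, 0.0362) and Nr1d2 without control animal 549 (1.0, 0.0451) or without control run 1 (1.03, 0.0391). Animal 574 held the lowest control value of Arntl and 549 the highest of Nr1d2. With 574, 549 or control run 1 left out, 67, 75 and 46 probes passed in all, against 31 with every animal.

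**Figure D2:**
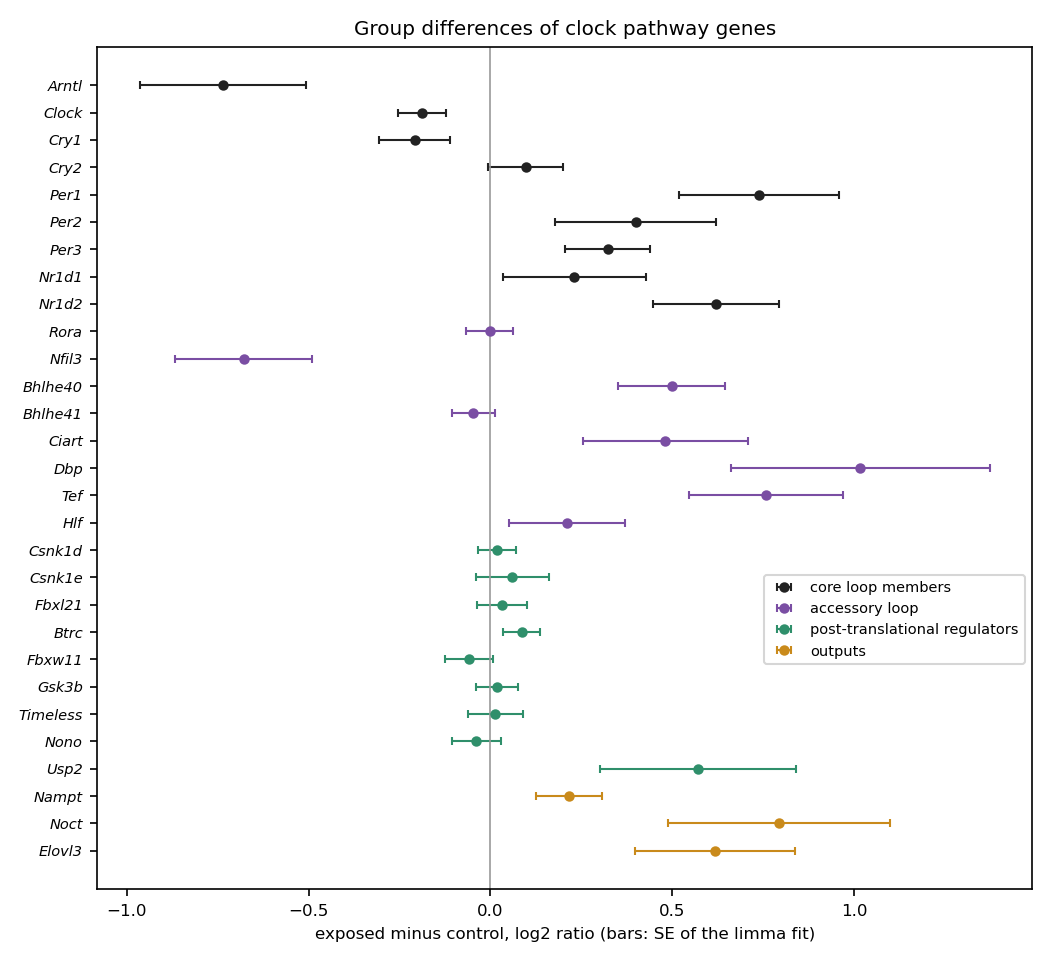
Exposed minus control difference of the log2 ratio, with SE of the limma fit, for the 9 tested members of the core loop and 20 other clock genes (accessory loop, post-translational regulators, outputs). Arntl and Nfil3 lie on the lower side, Dbp, Noct, Tef, Per1 and Nr1d2 on the higher side, and none passed at an adjusted p under 0.05.

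Across single animals Arntl and Nr1d2 were the only pair of an activator and a repressor that passed in both groups. In control animals their log2 ratios correlated at r = -0.81 (rho = -0.88, n = 16, permutation p = 8e-05, adjusted p = 0.00168 over 42 relations), and in exposed animals at r = -0.85 (rho = -0.84, n = 14, permutation p = 0.00015, adjusted p = 0.00210). Without the 2 animals farthest from the median of Arntl, r was -0.83 and -0.84. With run means removed, r was -0.80 (adjusted p = 0.00462) and -0.78 (0.0236), so the relation was also present within runs.

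With slide means removed, r was -0.95 over 8 pairs of control animals and -0.90 over 6 pairs of exposed animals. Exchanging animals within these pairs gives an exact p of at least 0.00781 and 0.0312, and adjusted values were 0.0820 and 0.146. Median centring in place of loess weakened the relation to r = -0.55 in control (adjusted p = 0.181) and -0.51 in exposed animals (adjusted p = 0.257). The genes of an animal share 1 array and 1 reference hybridisation, and how far that sharing moves the correlations was not tested.

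Of the 21 pairs of an activator with a repressor, 8 passed in control and 1 in exposed animals (Pearson r, permutation, adjusted over 42 relations). The share of pairs of other genes that would pass was not tested, and r with Arntl also spread widely over other genes, as given below. Beside Arntl with Nr1d2, the control animals had opposite movement in Npas2 with Nr1d2 (r = -0.89, rho = -0.88, adjusted p = 0.00084), Npas2 with Nr1d1 (r = -0.75, rho = -0.74, adjusted p = 0.00826), Clock with Nr1d2 (r = -0.73, rho = -0.75, adjusted p = 0.00826) and Arntl with Per3 (r = -0.67, rho = -0.58, adjusted p = 0.0196). Cry1, grouped with the repressors, moved with the activators instead, at r = 0.70 with Arntl (rho = 0.75, adjusted p = 0.0107), 0.70 with Clock (rho = 0.70, adjusted p = 0.0135) and 0.78 with Npas2 (rho = 0.66, adjusted p = 0.00336). Of all 21 pairs, r was below 0 in 18 in control and in 17 in exposed animals, and the 3 pairs of Cry1 were above 0 in both groups. The pairs share activators and arrays, so their signs are not separate observations.

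Some of the pairs that passed rest on few animals. Without the 2 animals farthest from the median of Arntl, its r with Per3 in control animals was -0.31. Without control animal 547 or 549 only 4 pairs passed in control animals. The calls of Clock with Cry1, Clock with Nr1d2 and Arntl with Per3 were lost without either, that of Npas2 with Nr1d1 without 547 and that of Arntl with Cry1 without 549, with adjusted p between 0.0515 and 0.131. That of Arntl with Per3 was also lost without animal 574 (0.0812). Clock with Nr1d2 was at r = -0.07 with median centring. With run means removed, 9 pairs passed in control and 1 in exposed animals, and with slide means removed 0 in either group.

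Animal 547 had the highest control value of Clock (0.92), Npas2 (0.78) and Cry1 (0.69) and the lowest of Nr1d1 (-0.41) and Nr1d2 (-0.38). Animal 549 was its opposite: the lowest control value of Clock (0.11), Npas2 (-0.14) and Cry1 (-0.54), and the highest of Nr1d2 (1.76), Per2 (1.67), Per3 (0.32) and Cry2 (1.12).

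**Figure D3:**
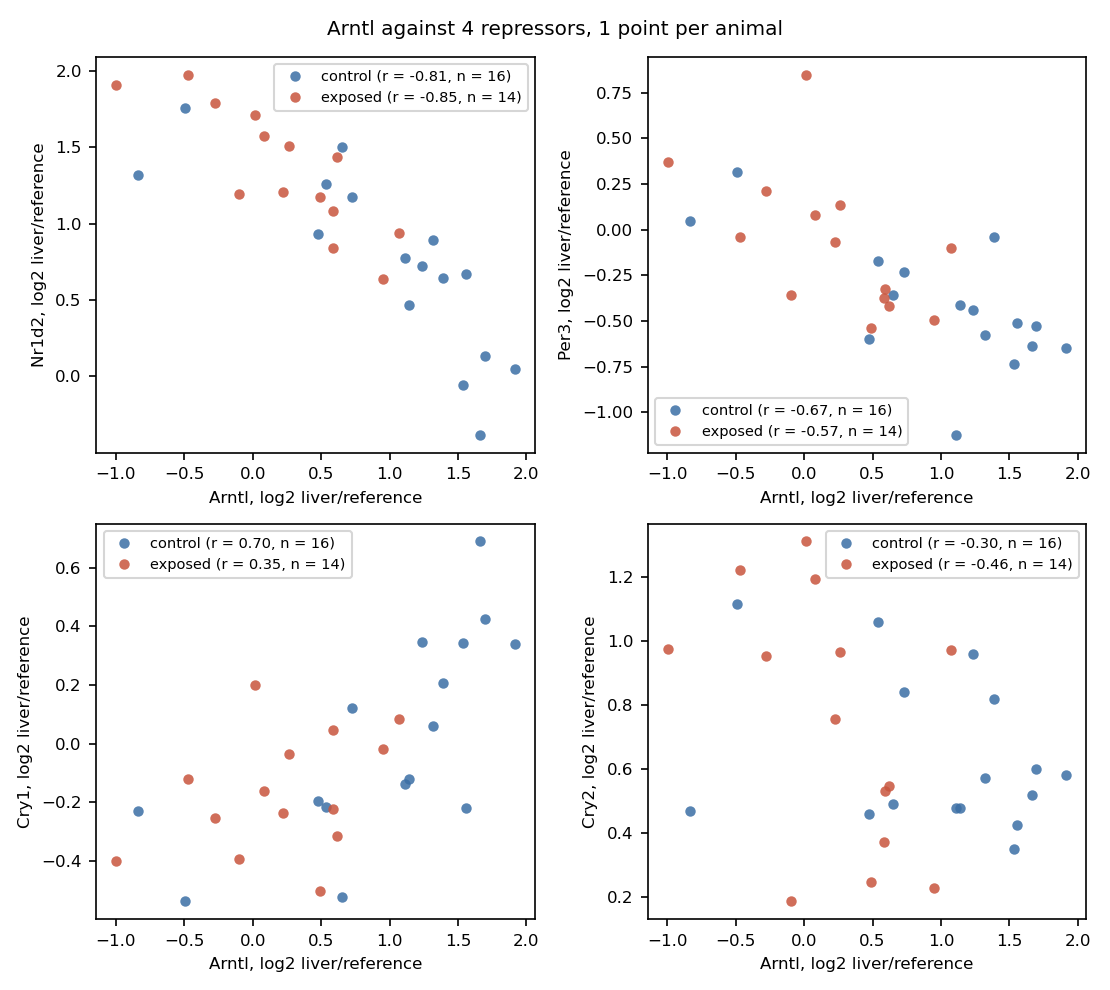
Log2 ratio of Nr1d2, Per3, Cry1 and Cry2 (vertical axes) against that of Arntl (horizontal axes), 1 point per animal, 16 control and 14 exposed. Nr1d2 falls along Arntl in both groups (r = -0.81 and -0.85), Cry1 rises with it in control animals (r = 0.70), and for Cry2 r was -0.30 and -0.46.

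No pair differed in r between the groups after adjustment over 21 pairs (permutation of group labels). The smallest p was that of Npas2 with Nr1d2, at -0.89 in control and -0.26 in exposed animals (p = 0.00819, adjusted p = 0.172). Npas2 spread over 0.92 log2 units in control and over 0.80 in exposed animals and was well above background on only 13 arrays, which limits what its values can show. For Arntl the differences of r, exposed minus control, lay between -0.35 (Cry1) and 0.15 (Nr1d1).

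The other repressors followed Arntl less closely. In control animals r with Arntl was -0.55 for Nr1d1 (rho = -0.76), -0.52 for Per2, -0.47 for Per1 and -0.30 for Cry2, and in exposed animals -0.40, -0.57, -0.34 and -0.46. None of these passed. By ranks, the relation of Arntl with Nr1d1 in control animals did pass (rho = -0.76, adjusted p = 0.00882), and without the 2 animals farthest from the median of Arntl r was -0.78. In exposed animals with run means removed that relation was at r = 0.10. Per2 and Cry2 were each read from their brightest probe, with which a second probe disagreed.

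Among the repressors, Cry2 and Per3 moved together in both groups, at r = 0.62 in control and 0.84 in exposed animals, and Nr1d2 and Per3 at 0.62 and 0.69. Per1 followed Per3 weakly, at 0.26 and 0.04. Nr1d1 and Nr1d2 correlated at 0.78 in control and 0.31 in exposed animals, a difference that was not tested. Within the activator arm, Arntl correlated with Clock at 0.82 in control and 0.43 in exposed animals and with Npas2 at 0.80 and -0.08. These values are descriptions with no test.

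**Figure D4:**
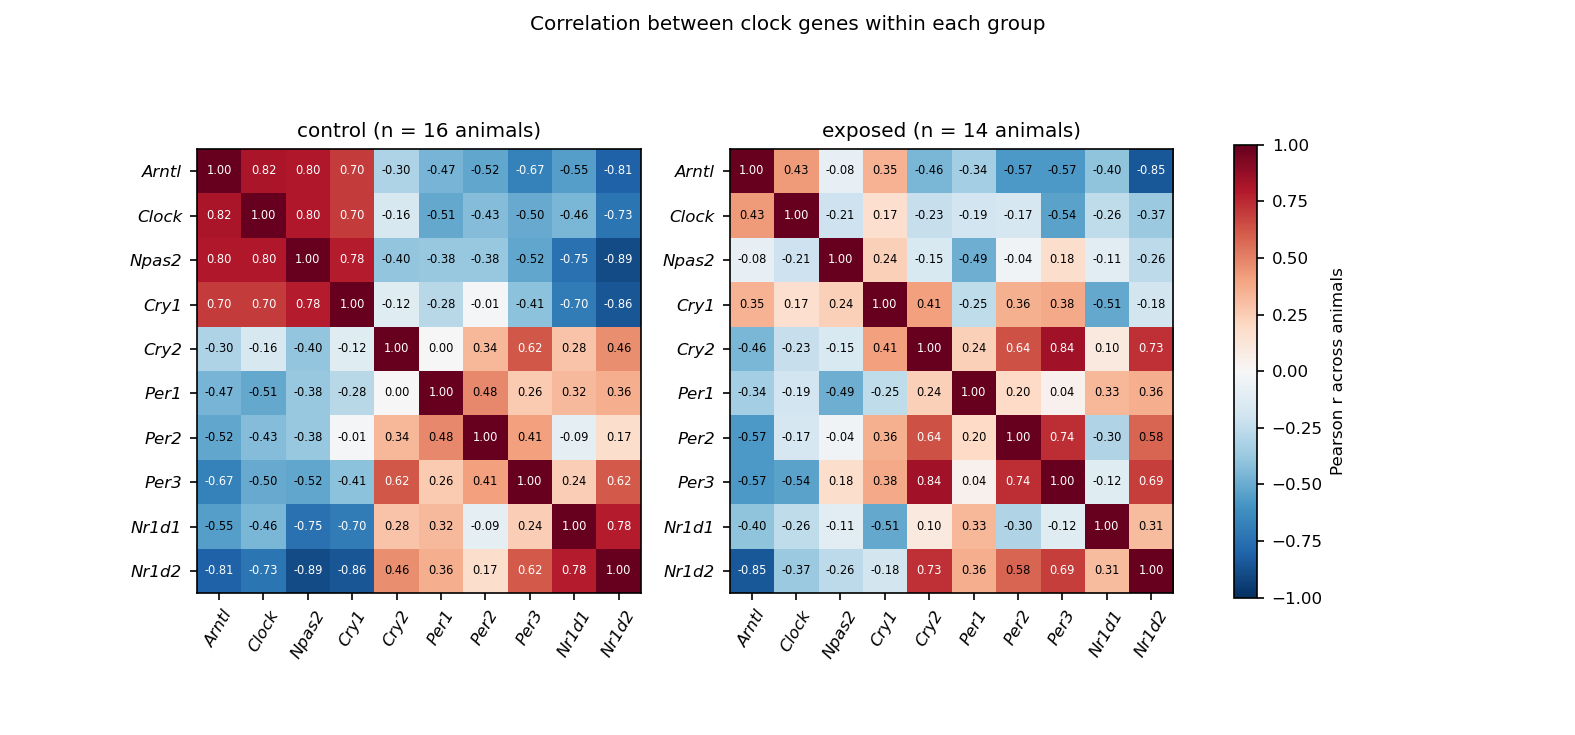
Pearson r between every pair of the 10 clock genes across 16 control animals (left) and 14 exposed animals (right), coloured from -1 (blue) to 1 (red). In control animals Arntl, Clock, Npas2 and Cry1 form a positive block opposed to Nr1d1 and Nr1d2; in exposed animals Arntl opposes Nr1d2 (-0.85) and Npas2 stands apart.

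Some of the clock genes were also among the genes that varied most between animals of the same group, a trait not particular to the loop. Outside it, Dbp stood at percentile 99.9 of the SD, Fkbp5 at 99.7, Lyve1 at 99.2 and Ttr at 99.1. Csnk1d (25.7) and Pecam1 (19.1) stood low. The SD within groups was 0.68 for Arntl, 0.70 for Per2, 0.66 for Per1, 0.58 for Nr1d1 and 0.52 for Nr1d2, against a median of 0.18 over 12188 tested named genes. Per3 (0.36), Cry2 (0.32) and Cry1 (0.29) were intermediate. Clock had an SD of 0.19, which placed it at percentile 54.7, whereas Arntl and Per2 stood at 99.3. Per2 is read here and below from its brighter probe. Its second detected probe correlated with that one at r = -0.07, and its group difference had an SE of 0.08 against 0.22.

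When all tested named genes were ordered by r with Arntl over the 30 animals with group means removed, the highest 5 outside the loop were Lgalsl (0.93), Chka (0.91), Clpx (0.90), a mitochondrial protease subunit, Lrfn3 (0.88) and Dnmt3b (0.86), a DNA methyltransferase. The lowest were Dbp (-0.87), Tef (-0.83), Coq10b (-0.72), Tns2 (-0.68) and Jade1 (-0.67), with Nr1d2 (-0.82) next after Tef. Lgalsl kept r = 0.97 in control and 0.83 in exposed animals, and Chka, which makes phosphocholine, 0.93 and 0.85. Over all 12187 other genes the middle 95% of r ran from -0.35 to 0.43. Clock (0.68) and Cry1 (0.61) lay above that span, Nr1d2, Per3 (-0.62), Per2 (-0.53), Nr1d1 (-0.47) and Per1 (-0.43) below it, and Cry2 (-0.35) at its edge. Within single groups the middle 95% was wider, from -0.524 to 0.642 in control and from -0.523 to 0.492 in exposed animals. In control animals Cry2 (-0.305), Per1 (-0.467) and Per2 (-0.522) lay inside it, and the other tested members outside. In exposed animals Clock (0.43), Cry1 (0.35), Cry2 (-0.46), Per1 (-0.34) and Nr1d1 (-0.40) lay inside it. Per2 (-0.57), Per3 (-0.57) and Nr1d2 (-0.85) lay below it there.

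For Nr1d1 the highest were Jade1 (0.78), Tns2 (0.72), Trib3 (0.70), Map1lc3b (0.69), a marker of autophagy membranes, and Retreg1 (0.66). The lowest were Macrod2 (-0.77), Lonrf3 (-0.70), Six5 (-0.68), Zscan20 (-0.66) and Endog (-0.66). Jade1 and Tns2 were thus at opposite ends for Nr1d1 and for Arntl. Nr1d2 (0.58) and Cry1 (-0.60) were the members most like and most opposite to Nr1d1.

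**Figure D5:**
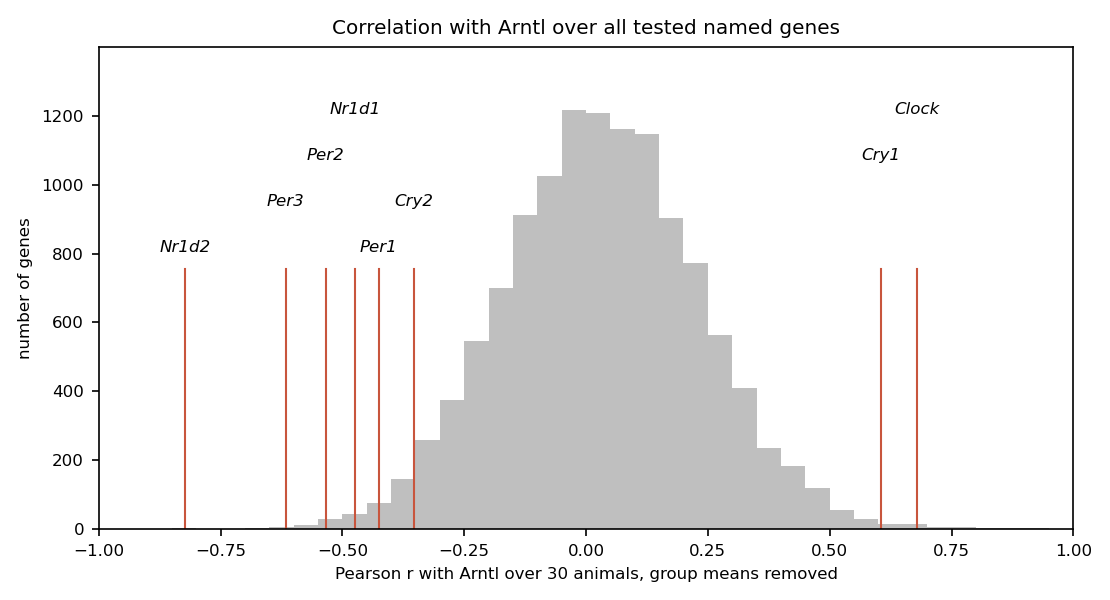
Number of tested named genes (vertical axis) by Pearson r with Arntl over 30 animals with group means removed (horizontal axis, bins of 0.05); red lines mark members of the loop. Clock and Cry1 lie in the upper tail and Nr1d2, at -0.82, in the lower one.

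The accessory loop, which links the core loop to D-box and ROR sites, was read from the same fit. Of the 9 genes described 8 were tested and 0 passed, against 0.0169% of all tested probes. At an unadjusted p under 0.05 there were 4 higher and 1 lower, against 7.5% and 4.68% of all tested probes. The D-box activators Dbp and Tef differed by 1.02 ± 0.36 (SE, adjusted p = 0.236) and 0.76 ± 0.21 (SE, adjusted p = 0.146). Nfil3, which represses through the same D-box, differed by -0.68 ± 0.19 (SE, adjusted p = 0.146), and its r with Arntl was 0.85 with group means removed. Bhlhe40 (0.50) and Ciart (0.48), repressors of E-box genes, were the other 2 at an unadjusted p under 0.05. Rora, an activator at the ROR site, differed by 0.00 ± 0.07 (SE). Hlf (0.21) and Bhlhe41 (-0.05) had an unadjusted p above 0.05, and Rorb was not well above background on any array. The median difference of the 8 tested genes was 0.35, against 0.23 for the 9 tested members and 0.00 for all tested named genes.

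Of the 9 post-translational regulators described, such as the casein kinases Csnk1d and Csnk1e that phosphorylate PER proteins, all were tested and 0 passed, against 0.0169% of all tested probes. Of these, 8 differed by less than 0.1 in either direction, and Usp2, a deubiquitinase whose transcript cycles in liver, differed by 0.57 ± 0.27 (SE, adjusted p = 0.390). Of the 5 output genes 3 were tested and 0 passed: Noct, a circadian phosphatase (0.79, adjusted p = 0.276), Elovl3, a fatty acid elongase (0.62, 0.246), and Nampt of NAD synthesis (0.22, 0.326). At an unadjusted p under 0.05 these 3 output genes and, of the 9 regulators, Usp2 were higher, against 7.5% of all tested probes. In exposed run 1, Tef (1.06, adjusted p = 0.0232), Usp2 (1.18, 0.0429) and Nampt (0.55, 0.00745) rose and Nono (-0.32, 0.0171) fell against the control runs, beside the 4.8% of all probes that passed there.

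Genes that respond to glucocorticoids were set beside Per1, and 0 of the 4 tested passed, against 0.0169% of all tested probes. At an unadjusted p under 0.05 there were 2 higher, against 7.5% of all tested probes. Fkbp5 differed by 0.84 ± 0.26 (SE, adjusted p = 0.180) and Klf9 by 0.58 ± 0.16 (SE, adjusted p = 0.148), while Tsc22d3 (0.00) and Sgk1 (0.20) had an unadjusted p above 0.05. With group means removed, r with Arntl was 0.01 for Fkbp5, -0.25 for Klf9, 0.17 for Tsc22d3 and -0.02 for Sgk1. With Nr1d1 it was -0.01, 0.57, -0.21 and -0.07 in the same order. Their part in the level of Per1 was not tested.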

How the data were processed

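Liver RNA (Cy5) of 16 control and 14 exposed mice was hybridised against reference RNA (Cy3) on 2-colour Agilent arrays, 200 ng per sample, per the labels' protocols. The deposited scanner files hold spot intensity in both dyes from Agilent Feature Extraction, run by the authors in version 10.1.1.1 (5 arrays) or 10.7.3.1 (25 arrays), per the file headers. The deposited value table holds log2 ratios, and every column matched its own array best (30 of 30, r from 0.979 to 0.993 over 14296 spots). The column medians lay between -0.05 and -0.02. How that table was normalised is not given in the sources used here.

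Median signals were corrected by normexp (offset 50), normalised by loess within arrays with control spots at weight 0, and averaged per probe; spots marked as outliers were set to missing (1008 probe values). Tests covered the 23607 probes with a Cy5 signal well above background on 14 or more of the 30 arrays. They represent 12188 genes that a RefSeq table (build GRCm38.p6) names through the transcript. A gene is its brightest tested probe. Npas2, with no tested probe, entered the description and the correlations through its dim one. Groups and runs (a gap of more than 10 in animal numbers starts a run) were compared with limma 3.58.1 in R 4.3.3 (with data.table, version 1.17.8), two-sided, slide as random block (correlation 0.159), Benjamini-Hochberg over all tested probes, threshold 0.05. Correlations used 100000 resamples, two-sided, or exact exchange within slide pairs (Python 3.11.15, numpy 2.4.6, scipy 1.17.1, pandas 2.3.3, statsmodels 0.14.6, matplotlib 3.10.9). The scripts were tested on simulated data. The number of arrays limits the precision.

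Named genes are all members, the fixed pathway lists, and the 5 genes of highest and lowest r with Arntl and with Nr1d1. A gene of the accessory loop list and one of the post-translational list are not reported here. Members and lists were chosen with earlier results of these data known. There were 19 alternatives, and each animal was left out in turn.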

Additional observations from a re-analysis of the deposited data

Results flagged for a closer look

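Cry2 and Nr1d1 differed among the 3 exposed runs by the moderated F test of limma, with adjusted p of 0.00408 and 0.0395. In that test 976 of 23607 probes (4.13%) passed. Both calls were lost with slides as fixed terms, with median centring and without exposed run 1. That of Nr1d1 was also lost without any 1 of 10 animals. The runs are unexplained in the labels. Cry2 was low in run 2 (mean 0.32), against 1.0 and 0.98 in runs 1 and 3, while Nr1d1 was high in run 3 (1.77), against 0.58 and 0.97 in runs 1 and 2.

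A gap test for a single distant animal was made in 60 sets, each 1 gene in 1 run, and chance gives about 1 in 20. It marked 2. In control run 2, Per3 of animal 574 was at 0.049, with the nearest other animal at -0.51. In control run 3, Clock of animal 595 was at 0.45, with the nearest other animal at 0.62.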

How the results depend on the processing

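Control and exposed animals share no numbers that would pair them, so slide, which held both groups on 7 slides, was the block. The differences between exposed and control animals of the 9 tested members kept their direction under the 16 alternatives that apply to them (15 for Cry1, Per2 and Per3, whose probes were not well above background on all arrays) and without any 1 animal. Between the groups 2 members passed with array weights and 0 to 1 without 1 animal. All probes that passed numbered 17 with the deposited value table or no background correction, 2 with probe means per gene, slide as fixed block or without arrays of the older software, 166 with array weights, 65 with 6 run means, 37 without exposed run 1, 0 with median centring or without control run 1, and 2 to 111 without 1 animal.

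Among exposed runs 1 member passed with processed signals, the deposited table, no filter on dim probes or without the older software, and 0 with median centring, slide as fixed block or without exposed run 1 (1 to 2 without 1 animal). In that order 1018, 1174, 828 (of 41174), 391, 125, 172 and 5 of all probes passed, against 976 of 23607 in the fit above. In exposed run 1, 2 members passed with processed signals, the deposited table, no background correction or without control run 1, and 0 with median centring or slide as fixed block (0 to 2 without 1 animal). Of all 23607 probes 1757, 1644, 1789, 1300, 174 and 431 passed in those settings, against 1132 in the fit above. In exposed run 3, 7 members passed with array weights and 2 without control run 1 (0 to 3 without 1 animal). With array weights 554 of 23607 probes passed in that run and without control run 1 46, against 31 in the fit above.

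Correlated pairs in control animals numbered 0 with slide means removed, 3 with median centring or without control run 1, and 2 with probes well above background on all arrays, which leaves fewer pairs (4 to 9 without 1 animal). In exposed animals they numbered 0 with slide means removed or median centring, 3 with probe means per gene, and 2 without exposed run 1 or by ranks (1 to 2 without 1 animal). With slide means removed, the lowest exact p that exchange within pairs can reach leaves little room to pass in either group. Among the pairs of Arntl and those that passed in either group, sign changes occurred only in pairs that had not passed in that group: Arntl with Cry2 in control animals (0.0232 with median centring, 0.0108 without control run 1) and, in exposed animals, Arntl with Nr1d1 (0.10 with run means removed), Arntl with Per1 (0.0309 with median centring, -0.489 to 0.00559 without 1 animal, the last without animal 214), Clock with Nr1d2 (0.0754 with median centring) and Npas2 with Nr1d1 (0.0961 with run means removed, 0.00454 with probe means, 0.0957 without exposed run 1, -0.402 to 0.0364 without 1 animal, the last without animal 177). The cause of these changes was not tested. Npas2, Per3 and Cry1 are limited by signal near background.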
